A study of Mus musculus with 6 samples.

Results

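Mitochondrial ribosomal protein genes were compared between control and Nampt knockout kidneys. Members were genes whose symbol starts with Mrpl or Mrps and a digit, and 77 of 78 such genes on the array had a probe well above background on all 6 arrays, out of 15310 genes tested. Whole kidneys of male C57BL/6J mice were profiled on single-colour Agilent microarrays, which measure RNA as the brightness of a spot. The control group held 3 animals with the genotype label Control. The other group held 3 animals labelled iNampt-conditional knockout, that is, conditional deletion of Nampt, which encodes the rate-limiting enzyme of NAD salvage. The series title points to the renal proximal tubules. The labels name no Cre driver, deleted exon, age or treatment, and describe every animal as male and of the same strain. A whole kidney mixes many cell types, so fewer cells of a type and less RNA per cell cannot be told apart.

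The mitochondrial ribosome makes the respiratory chain subunits that mitochondrial DNA encodes. Its RNAs come from mitochondrial DNA, while its proteins are encoded in the nucleus, made in the cytosol and imported. Part of them descend from bacterial ribosomal proteins and part are found only in mitochondria. Proximal tubule cells are packed with mitochondria that power reabsorption.

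The scanner software called 57.3% to 63.3% of each array's spots well above background, and none saturated. The 3 controls and knockout 1 lay in the first row of the slide and knockouts 2 and 3 in its second. Nampt itself was at 2.67 ± 0.09 (SD, n = 3) in controls and 1.61 ± 0.17 (SD, n = 3) in knockouts, in log2 signal relative to the array's 75th percentile. It fell by 1.06 on the log2 scale (limma adjusted p = 0.0432), and the adjusted p ran from 0.00881 to 0.181 over 18 alternatives, above 0.05 in 9 of them. The sources used here do not say whether its probe lies in the deleted part. Markers of kidney cell types were read beside this. All 17 proximal tubule markers were measured, 0 at an unadjusted p under 0.05, with a median log2 difference of 0.015. The array medians of this list, relative to the control mean, ran from -0.044 to 0.090 in controls and from -0.0059 to 0.034 in knockouts. Median differences were 0.022 for 5 podocyte and 0.0030 for 6 endothelial markers, with 0 at an unadjusted p under 0.05. The proximal tubule, podocyte and endothelial medians changed sign among the alternatives, from -0.023 to 0.054, -0.10 to 0.099 and -0.038 to 0.040. The median was -0.029 for 6 thick ascending limb markers, 1 of them lower at an unadjusted p under 0.05 (Kcnj1, a potassium channel gene, -0.21), and ran from -0.10 without control 3 to -0.0042 with normexp and quantile normalisation. It was -0.15 for 9 distal tubule and collecting duct markers, of which Slc26a4 (-0.45) and Atp6v1g3 (-0.28), genes of intercalated cells, were lower at an unadjusted p under 0.05. That median ran from -0.27 without control 1 to -0.090 with slide row as a block, and was -0.093 without control 3. It was 0.27 for 11 leukocyte markers, and 0.15 without control 3. Of these markers 5 were higher and 2 lower at an unadjusted p under 0.05 (63.6%, against 12.8% of all genes). Their log2 differences ran from -2.39 to 1.37, with 3 beyond 2-fold. For 5 erythroid markers the median was -0.69, with 0 at an unadjusted p under 0.05. Their array medians in knockouts 1, 2 and 3 were -0.021, -0.95 and -1.08, low on the second slide row alone. A block on slide row leaves knockout 1 against the controls, so its median of -0.021 only repeats the value of knockout 1. The erythroid median was -1.04 without knockout 1. For 9 adipocyte markers, 1 of them lower at an unadjusted p under 0.05, the median was -0.63, and it was -0.13 without knockout 1, -0.038 without knockout 2, -1.32 without knockout 3, -0.41 without control 1 and -0.97 without control 2. No marker passed the adjusted p by limma, and the part of cell makeup in the results that follow was not tested.

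Promoter stretches of 6 members are shown as examples of motif letters held by a larger share of member windows than of all windows. RefSeq windows (GRCm38.p6), from 250 bases before to 50 after the start of the gene, were held for 68 of the 77 members. NRF1 and the ETS factor GABP are known activators of nuclear genes for mitochondrial proteins, and YY1 binds many such promoters. Capitals mark GCATGCGC (NRF1), CCGGAAGT (ETS) or AAGATGGCG (YY1) on either strand, and each stretch ends before the start.
Mrpl36, chr13:73330948-73331008, plus strand, YY1: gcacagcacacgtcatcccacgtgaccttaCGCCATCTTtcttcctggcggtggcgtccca
Mrpl32, chr13:14613038-14613154, minus strand, NRF1: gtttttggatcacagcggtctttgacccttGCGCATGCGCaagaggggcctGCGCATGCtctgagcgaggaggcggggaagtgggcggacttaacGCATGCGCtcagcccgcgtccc
Mrpl9, chr3:94443278-94443335, plus strand, NRF1: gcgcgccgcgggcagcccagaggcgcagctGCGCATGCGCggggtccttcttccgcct
Mrpl22, chr11:58171601-58171663, plus strand, NRF1: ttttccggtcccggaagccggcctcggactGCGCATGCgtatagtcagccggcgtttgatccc
Mrpl51, chr6:125192080-125192147, plus strand, ETS: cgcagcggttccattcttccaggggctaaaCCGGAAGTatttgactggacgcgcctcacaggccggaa
Mrps27, chr13:99344707-99344774, plus strand, ETS: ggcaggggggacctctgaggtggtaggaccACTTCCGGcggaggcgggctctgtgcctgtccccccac
Mrpl36 was the only 1 of the 6 members of smallest p with such a match, among the 5 of those 6 that had a window. Mrpl32 held 4 NRF1 matches, of which a pair overlaps because the motif is nearly its own reverse complement, and Mrpl9 held such an overlapping pair.

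An NRF1 match was found in 8 of the 68 member windows (11.8%) and in 3.61% of 17492 protein-coding promoter windows. An ETS match was found in 11 members (16.2%) and in 5.29% of all windows, and a YY1 match in 8 members (11.8%) and in 1.94% of all windows. The median position of the match was 60 bases before the start for NRF1 and 19 before it for ETS, but 18.5 after it for YY1, so the YY1 match of Mrpl36, which lies before the start, is not typical of the 8. CCAAT, searched on both strands as a common promoter motif, was found in 27 members (39.7%) and in 39.03% of all windows. In all, 25 members (36.8%) held at least 1 of the first 3 motifs, against 10.2% of all windows. The share with a match was therefore larger among members for NRF1, ETS and YY1 and close to the background for CCAAT. The median log2 difference, knockout minus control, was -0.061 in the 25 members with a match and -0.059 in the 43 without. By single motif it was -0.040 with an NRF1 match and -0.062 without, -0.057 and -0.063 for ETS, and -0.083 and -0.058 for YY1, so NRF1 and YY1 went opposite ways. These differences were not tested. A match is a run of letters and was not tested as a binding site.

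**Figure D1:**
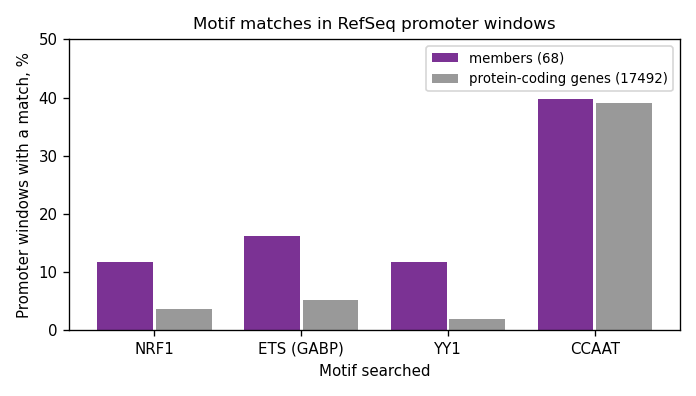
Bars give the percent of promoter windows with at least 1 match to each motif, for 68 members and for 17492 protein-coding genes. NRF1, ETS and YY1 bars are taller for members, while the CCAAT bars stand at 39.7% and 39.03%.

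None of the 77 members passed a limma adjusted p of 0.05, where 26 of all 15310 genes did (0.17%). The smallest adjusted p of a member was 0.271. At an unadjusted p under 0.05, 6 members were lower and none higher in the knockouts. That is 7.79% of members, against 12.8% of all genes in either direction, 6.13% lower and 6.69% higher. The differences were small but mostly of 1 sign. The log2 difference, knockout minus control, was below 0 in 71 of 77 members, and below 0 in 52.9% of all genes. It was below 0 in 57.9% of the 8872 genes with a mean signal above the 75th percentile. Its median was -0.063 over members and -0.0077 over all genes, and the members ran from -0.21 to 0.084. The SE of a member's difference lay between 0.047 and 0.0998. Every member's unadjusted 95% interval lay inside a 1.5-fold change in either direction, with bounds from 0.748-fold to 1.26-fold.

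**Figure D2:**
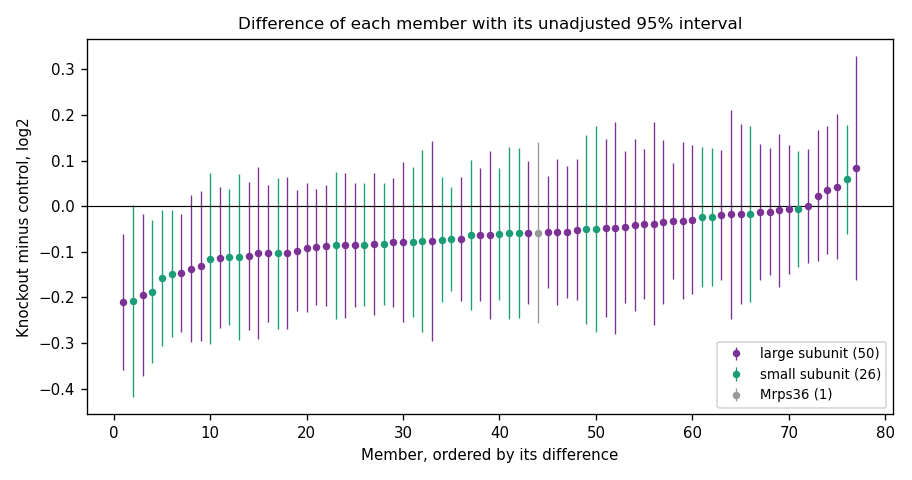
Each point is the log2 difference of 1 member, knockout minus control, with its unadjusted 95% interval from limma, ordered from lowest to highest. Of 77 points, 71 lie below 0, and most intervals cross 0.

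The number of differences below 0 depended on control 3. Each array was set against the mean of the controls, gene by gene. The median over members was then -0.059 and -0.037 for the first 2 controls but 0.097 for control 3, and it was -0.095, -0.023 and -0.066 for knockouts 1, 2 and 3. With scaling by the 75th percentile, controls 1 and 2 thus lay within the range of the knockouts, and only control 3 stood above it. Control 3 was the highest of the 3 controls in 73 of 77 members, where it was so in 49.3% of all genes. It was the highest of all 6 arrays in 71 members, against 33.2% of all genes. Over the 8872 genes with a mean signal above the 75th percentile these shares were 60.5% and 44.1%. Without control 3 the median difference was -0.016, with 46 of 77 members below 0, 1 member at an unadjusted p under 0.05 and 0 past the adjusted p (limma). Over all genes the median was then 0.0065, with 7270 of 15310 below 0 and 10.1% at an unadjusted p under 0.05.

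**Figure D3:**
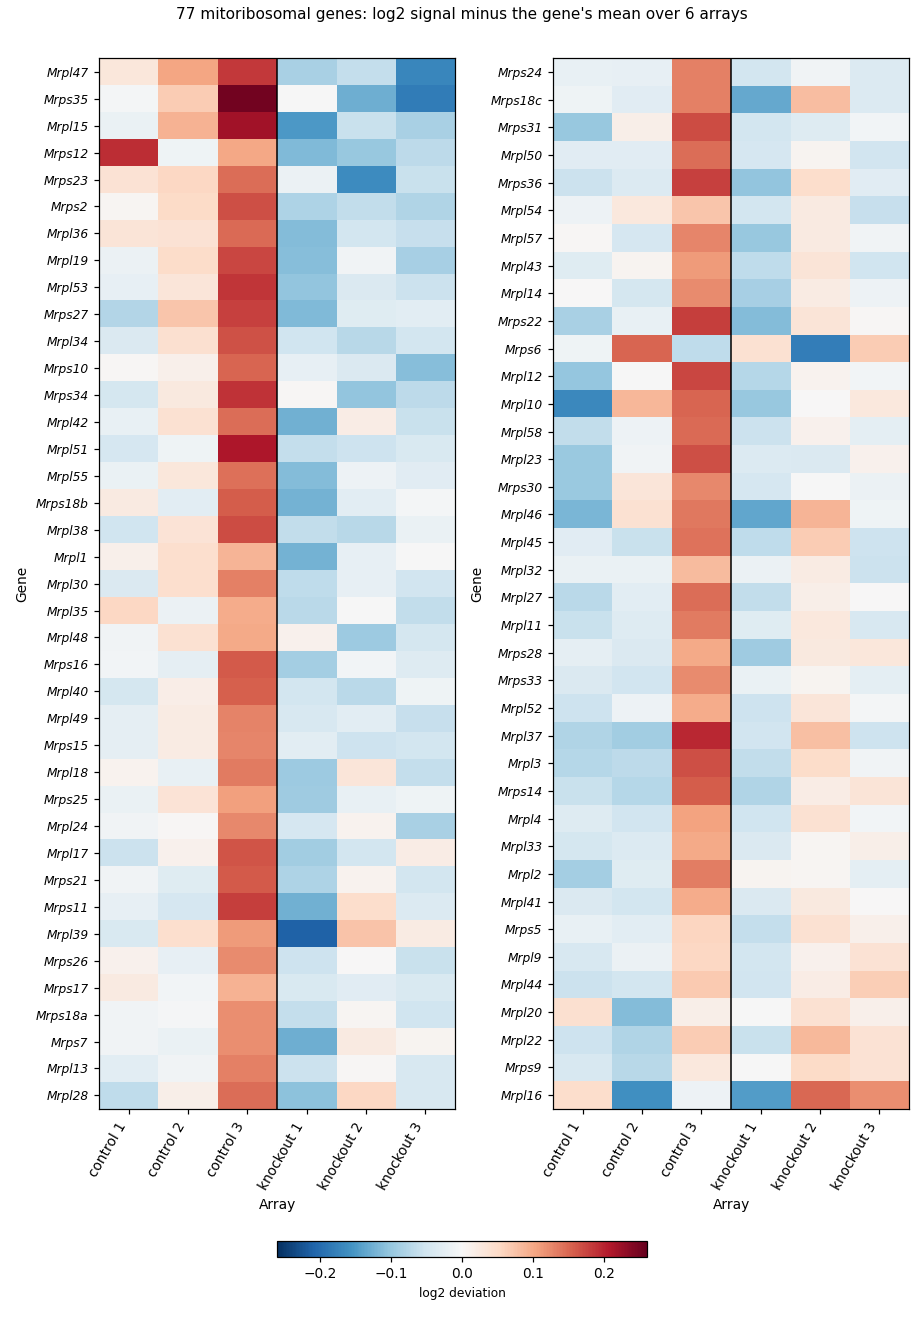
Each row is 1 of the 77 members, ordered by its difference, and each column an array; colour gives the log2 signal minus the gene's mean over the 6 arrays. The control 3 column is the highest of all 6 in 71 rows, Mrps12, Mrps6, Mrpl16, Mrpl20, Mrpl22 and Mrps9 being the others.

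Slide row moved with the groups as well. With row as a block, which leaves knockout 1 against the 3 controls beside it, the median difference of the members was -0.095 and 73 were below 0. Part of the offset of control 3 depended on the scaling. With quantile normalisation its median over members was 0.046 and it was the highest array in 57 members, and with normexp and quantile normalisation these values were 0.044 and 57. The cause of the offset was not tested.

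The offset of control 3 was shared by some other lists of abundant transcripts, but not by all. Its median was 0.11 over 82 nuclear subunits of oxidative phosphorylation, 0.079 over 79 cytosolic ribosomal protein genes, 0.090 over the proximal tubule markers and 0.044 over the 8872 genes with a mean signal above the 75th percentile. Of the mitoribosomal genes, 76 of 77 lay in that brighter range. So did most markers of the thick ascending limb, endothelium, leukocytes and erythroid cells, where control 3 lay at -0.023, -0.045, -0.12 and -0.18. For the podocyte list and the distal tubule and collecting duct list, also mostly in that range, it lay at 0.063 and 0.14. Cytosolic ribosomal proteins lay at -0.0089, 0.030 and 0.011 in knockouts 1, 2 and 3, above controls 1 and 2 at -0.046 and -0.033, and 27 of 79 differences were below 0, with a median of 0.0079. That direction turned without control 1 (55 below 0, median -0.013), without control 2 (50, -0.0087), without knockout 2 (40, -0.0024) and with slide row as a block (47, -0.0089). For the oxidative phosphorylation subunits 76 of 82 were below 0, with a median of -0.052. Without control 3 the medians were 0.047 for cytosolic ribosomal proteins, 0.00092 for oxidative phosphorylation subunits and -0.016 for mitoribosomal genes. Differences between lists were not tested.

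**Figure D4:**
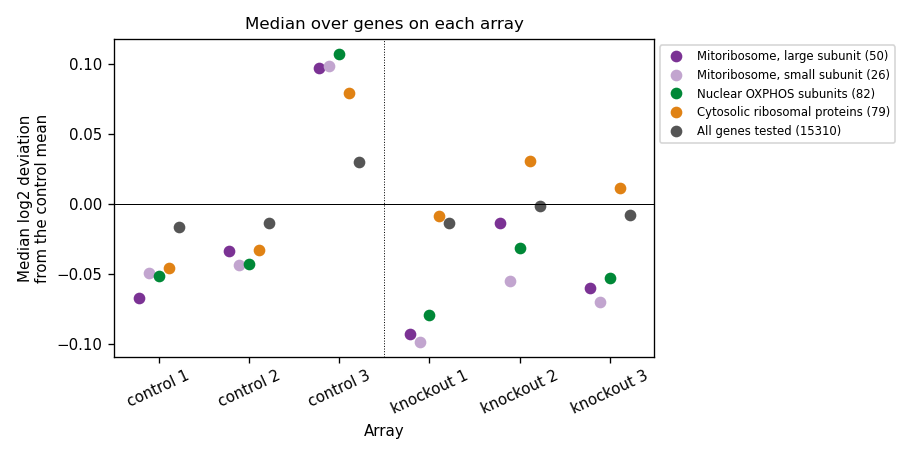
Points give, for each array, the median over the genes of a list of the log2 signal minus the gene's control mean; numbers of genes are in brackets. Control 3 is the highest array for all 5 lists, and for the large subunit, but not the small, the medians of controls 1 and 2 lie within the range of the knockouts.

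The 6 members at an unadjusted p under 0.05 did not overlap between groups, nor did 7 others, 13 in all (16.9%). In these the knockouts lay below the controls, as in 10.5% of all genes. The share was 12.2% over the 8872 genes with a mean signal above the 75th percentile. No member had all knockouts above all controls, which 9.05% of all genes did. Control 3 was the highest array in 5 of the 6. Mrpl47 encodes a large subunit protein at the exit of the tunnel through which new chains leave. Controls 1 to 3 had normalised log2 signals of 2.843, 2.918 and 2.998, and knockouts 1 to 3 had 2.730, 2.753 and 2.646. The highest knockout lay below the lowest control, and the difference was -0.21 ± 0.061 (SE; limma adjusted p = 0.271). Its second probe gave -0.16.

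Mrps12 encodes the small subunit protein beside the decoding centre, where codon and anticodon pair. It was at 4.665, 4.460 and 4.574 in the controls and at 4.357, 4.374 and 4.404 in the knockouts. Here control 1, not control 3, was the highest array, and the knockouts lay close together (SD 0.024 against 0.10). The difference was -0.19 ± 0.064 (adjusted p = 0.328), and it was -0.18 without control 3.

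Mrpl15, a large subunit protein with a bacterial counterpart, was at 2.985, 3.093 and 3.221 in the controls and 2.852, 2.945 and 2.919 in the knockouts. The groups lay closer to each other than the controls did among themselves. The difference of -0.19 ± 0.072 (adjusted p = 0.358) became -0.13 without control 3. The second probe of Mrpl15 gave -0.15, with overlapping groups. Mrpl36, one of the smallest proteins of the large subunit and the member shown above with a YY1 match, was at 4.056, 4.060 and 4.169 against 3.910, 3.974 and 3.963. Controls 1 and 2 nearly coincided, and the difference was -0.15 ± 0.053 (adjusted p = 0.349). Mrps2, a small subunit protein with a bacterial counterpart, was at 2.075, 2.119 and 2.238 in the controls and at 1.990, 2.005 and 1.991 in the knockouts. The knockouts spanned a far narrower range than the controls, with a difference of -0.15 ± 0.057 (adjusted p = 0.368). The second probe of Mrps2 gave -0.074, with overlapping groups. Mrps23, a small subunit protein without a bacterial counterpart, was at 4.733, 4.749 and 4.841 against 4.680, 4.532 and 4.638. The difference was -0.16 ± 0.061 (adjusted p = 0.368). The second probe of Mrps23 gave -0.051, with overlapping groups.

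**Figure D5:**
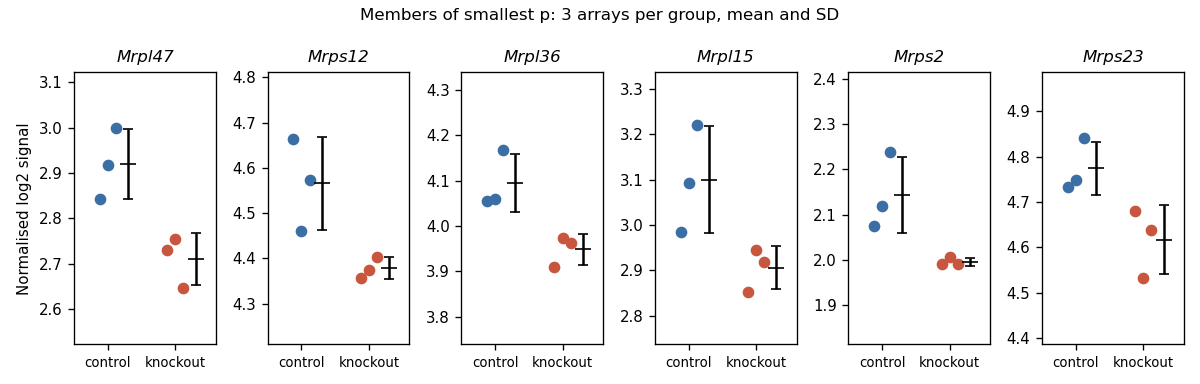
Normalised log2 signal of the 6 members of smallest p, with 1 point per array in order of replicate number and the mean and SD of 3 arrays beside them; every panel spans the same log2 range. In each panel the knockouts lie below the controls, and none of the 6 passed the adjusted p.

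Just behind them, Mrps35, a small subunit protein found only in mitochondria, had the largest spread over the 6 arrays of any member (SD 0.15). Its controls were at 2.708, 2.780 and 2.963 and its knockouts at 2.711, 2.585 and 2.530, so that knockout 1 lay within the controls. The difference was -0.21 ± 0.086 (adjusted p = 0.393). Mrpl19, a large subunit protein with a bacterial counterpart, was at -0.14 ± 0.066 (adjusted p = 0.459), with knockout 2 at 0.790 above control 1 at 0.784.

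The signs were alike in both subunits. Among 50 large subunit genes 45 differences were below 0 (median -0.057), and among 26 small subunit genes 25 were (median -0.075), with 3 of each at an unadjusted p under 0.05. Of 47 members with bacterial counterparts 42 were below 0 (median -0.063), and of 29 found only in mitochondria 28 were (median -0.059). Without control 3, 27 of 50 large subunit genes (median -0.0066) and 19 of 26 small subunit genes (median -0.030) were below 0. The small subunit medians of controls 1 and 2, -0.050 and -0.044, stood above those of the 3 knockouts, -0.099, -0.055 and -0.070, by less than control 3 stood above the other controls. The difference between subunits was not tested. These groups follow the structure of the ribosome, not the symbol: Mrps30 and Mrps18a, named as small subunit genes, encode proteins of the large subunit. The 3 Mrps18 paralogues descend from a single bacterial protein. Mrps18a was at -0.072 ± 0.056, Mrps18b at -0.10 ± 0.067 and Mrps18c at -0.059 ± 0.077 (adjusted p from 0.598 to 0.805), and groups overlapped for each.

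Along the large subunit, Mrpl12 encodes the stalk protein that recruits translation factors. It was at 5.852, 5.953 and 6.127 in the controls and at 5.880, 5.961 and 5.946 in the knockouts. Only control 3 stood apart, and the difference of -0.048 ± 0.080 (adjusted p = 0.852) turned to 0.027 without it. The other stalk genes Mrpl10 and Mrpl11 were at -0.047 ± 0.095 and -0.030 ± 0.067. Around the exit tunnel, Mrpl22, Mrpl23, Mrpl24 and Mrpl45, the last of which ties the ribosome to the inner membrane, were at 0.043, -0.041, -0.079 and -0.035. Mrpl58, a release factor-like peptidyl-tRNA hydrolase built into the subunit, was at -0.046 ± 0.068. None of these was near the threshold (adjusted p from 0.639 to 0.890).

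Mrps36 carries a ribosomal symbol, although its product is now known as a subunit of the oxoglutarate dehydrogenase complex of the citric acid cycle. It was at 4.830, 4.850 and 5.063 in the controls and at 4.782, 4.930 and 4.856 in the knockouts, with control 3 again alone at the top. Its difference was -0.058 ± 0.081 (adjusted p = 0.821), and 0.016 without control 3.

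Only 6 members were higher in the knockouts, none at an unadjusted p under 0.05. The largest such value belonged to Mrpl16, which encodes a large subunit protein near the catalytic centre. It was at 4.253, 4.048 and 4.193 in the controls and at 4.062, 4.356 and 4.328 in the knockouts. Knockout 1 lay with the lowest control and knockouts 2 and 3, from the second row of the slide, above all controls, and the difference was 0.084 ± 0.0998 (adjusted p = 0.788). Mrps9 was at 0.059 ± 0.049, Mrpl22 at 0.043 ± 0.065, Mrpl20 at 0.035 ± 0.057 and Mrpl44 at 0.023 ± 0.059. With row as a block, Mrpl16, Mrpl22, Mrpl44 and Mrpl9 were below 0.

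Mrpl9 was the least variable member (SD 0.041 over 6 arrays). It was at 2.525, 2.551 and 2.620 in the controls and at 2.518, 2.576 and 2.603 in the knockouts, with a 95% interval of the difference from -0.12 to 0.13. Mrps5 and Mrpl32, the latter known as a substrate of a mitochondrial protease before it joins the ribosome, followed with SDs of 0.044 and 0.048 and differences of -0.0065 and -0.032. After Mrps35, the most variable members were Mrpl15 (SD 0.13) and Mrpl16 (SD 0.13). The SD over 6 arrays was below 0.1 in 59 of 77 members, with a median of 0.083 against 0.10 over all genes. The median SD was 0.077 over the 8872 genes with a mean signal above the 75th percentile, where 76 of the members lay. It was 0.077 over the oxidative phosphorylation subunits and 0.052 over the cytosolic ribosomal proteins.

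More than 1 probe was measured for 22 members, and in 4 of them, Mrpl27, Mrpl39, Mrps14 and Mrps25, the probes differed in sign. For Mrps25 the brighter probe, the one used, was at -0.083 ± 0.059 in a limma fit over probes, while a dimmer probe was at 0.29 ± 0.11 (unadjusted p = 0.0417). Signals on the dimmer probe before scaling were 452, 433 and 399 units in the controls and 442, 559 and 494 in the knockouts. Its normalised log2 signals were -0.956, -1.009 and -0.996 in the controls and -0.909, -0.482 and -0.705 in the knockouts. Every knockout then lay above every control, and the 2 arrays of the second slide row were the highest. Mrpl21 was the member left out. Its single probe was not well above background on any array, with signals from 4.08 to 7.16 units, while the dimmest member kept, Mrpl1, gave 751 to 886 units.

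The remaining machinery of mitochondrial gene expression was read from lists of named genes, and 0 genes of the 6 lists passed the adjusted p by limma. Over all genes, 12.8% were at an unadjusted p under 0.05, 6.13% lower and 6.69% higher. Without control 3 the medians given below for the first 5 lists were all above 0, from 0.0029 to 0.036. The list of mitoribosomal proteins with other symbols also held the assembly factor Malsu1, at 2.4e-05 ± 0.058. This list had 4 of 6 differences below 0 (median -0.041, 0 at an unadjusted p under 0.05). It was led by Dap3, a GTP-binding small subunit protein, at -0.14 ± 0.068. The small subunit proteins Chchd1 and Aurkaip1 were at -0.10 ± 0.053 and -0.048 ± 0.054. Among 25 assembly and rRNA modification factors 20 were below 0 (median -0.052), and 1 was lower at an unadjusted p under 0.05. That gene was Eral1, a chaperone of the small subunit's RNA, at 1.155, 1.267 and 1.327 in the controls and 1.107, 1.091 and 1.089 in the knockouts (-0.15 ± 0.058, adjusted p = 0.361). Dhx30 and Mettl17, also assembly factors, were at -0.11 ± 0.049 and -0.19 ± 0.11. Mettl17 was low mainly in knockout 1, and its difference was -0.076 without that array and -0.43 with slide row as a block.

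Translation factors had a median of -0.026 (0.0043 with array weights), with 8 of 13 below 0 and 0 at an unadjusted p under 0.05. Taco1, a translational activator of a cytochrome oxidase subunit, was at -0.13 ± 0.066, Mtfmt, which formylates the initiator tRNA, at 0.14 ± 0.085 and Mtrf1l, a release factor, at -0.12 ± 0.096. Aminoacyl-tRNA synthetases and the glutamyl-tRNA amidotransferase had 12 of 20 below 0 (median -0.023). The amidotransferase gene Qrsl1 was at 1.090, 1.016 and 1.028 in the controls and 0.878, 0.861 and 0.921 in the knockouts (-0.16 ± 0.047, adjusted p = 0.279), the 1 gene of this list at an unadjusted p under 0.05. Mars2 and Vars2 were at -0.33 ± 0.15 and -0.27 ± 0.19. Vars2 was far lower in knockout 1 than on any other array, with a difference of -0.051 without it and -0.71 with slide row as a block, and Mars2 was at -0.18 without knockout 3 and -0.046 with that block.

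Genes of mitochondrial transcription and DNA maintenance had 12 of 17 below 0 (median -0.036). Polg2, the accessory subunit of the mitochondrial DNA polymerase, went the other way, at 0.757, 0.679 and 0.777 in the controls and 1.009, 0.964 and 0.919 in the knockouts (0.23 ± 0.052, adjusted p = 0.207), and was the 1 gene of the list at an unadjusted p under 0.05. Twnk, the replicative helicase, was at -0.11 ± 0.054, and Tfam, which packages and transcribes mitochondrial DNA, at 0.076 ± 0.047. Of 12 regulators of mitochondrial biogenesis 6 were below 0 (median 0.029, turning to -0.0054 without control 2 and -0.022 with probes of a gene averaged). At an unadjusted p under 0.05, 2 of the 12 were higher (16.7%, against 6.69% of all genes higher and 12.8% in either direction). These were the nuclear receptor genes Esrrg (0.23 ± 0.060, adjusted p = 0.236) and Ppara (0.30 ± 0.089, adjusted p = 0.277), whose groups did not overlap. All knockouts lay above all controls in 9.05% of all genes. Myc was at 0.33 ± 0.14. The coactivator gene Ppargc1a was at 0.14 ± 0.090, Gabpa at 0.077 ± 0.057, Nrf1 at -0.021 ± 0.053 and Yy1 at -0.0041 ± 0.053, all with overlapping groups.

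No member lies on chromosome 12, where 526 genes including Nampt were tested, in the RefSeq table of GRCm38.p6. The members are spread over 17 chromosomes.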

How the data were processed

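RNA from 6 whole kidneys, 3 per group, was measured on 1-colour arrays, 1 array per animal as the labels number them, and groups came from the sample titles. Where nothing else is said of their origin, p-values measure the spread between these samples. The spot intensity was extracted by the authors with Agilent Feature Extraction 10.7.1.1, background-subtracted and detrended within the array, per the file headers. Flags of 0 or 1 per spot were used as deposited. The authors' deposited value table, a linear ratio per probe, equals this intensity divided by a constant of the array: on each array 13933 to 13936 probes were compared and 100% matched within 1%. Its column medians were 0.075 to 0.084 and the sources used here do not name its software.

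Spots flagged as outliers, 92 to 151 an array, were dropped. The log2 intensities were averaged per probe (55681 probes) and centred on the array's 75th percentile. A probe entered (32949 did) when every array of either group detected it well above background. RefSeq (GRCm38.p6) named 28026 probes by accession. The kept probe of highest mean stood for each gene. Group means were compared (knockout minus control) with limma 3.58.1 in R 4.3.3 across all 15310 genes, with Benjamini-Hochberg adjustment at 0.05; intervals use its moderated error with 5.98 degrees of freedom. An exact permutation test of 3 against 3 cannot go below p = 0.1. Tested on simulated data with 200 of 15310 genes changed, the fit found 65.2% of the 1.5-fold changes and 82% of the 2-fold ones, with 4.83% false calls. The simulated noise was independent between genes, with no offset shared by an array or a slide row. Differences as small as those of the members were not simulated, so these rates do not cover them.

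The members and lists were chosen with earlier results of these data known. Named genes are Nampt, the 8 members of smallest p in each direction (6 exist above 0), the Mrps18 paralogues, Mrpl12, Mrps36, members whose probes oppose, the extremes of spread, the 3 genes of smallest p in each pathway list, and Ppargc1a, Tfam, Nrf1, Gabpa and Yy1. Mrpl10, Mrpl11, Mrpl23, Mrpl24, Mrpl45, Mrpl58 and Malsu1 were chosen by role after their values were seen. Scripts used Python 3.11.15, pandas 2.3.3 and matplotlib 3.10.9. The alternatives appear in the closing section. The normexp alternative used median spot signals.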

Additional observations from a re-analysis of the deposited data

How the results depend on the processing

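No member passed the adjusted p under any of 18 alternatives, with the smallest adjusted p of a member from 0.154 to 0.561. The median difference of the members stayed below 0, from -0.095 to -0.037 over 12 alternatives of processing or model and from -0.100 to -0.016 when 1 array was left out, the last without control 3. Of 77 members, 71 were below 0, and 46 without control 3, 58 with array weights and 60 without knockout 1. The count was 64 with either quantile normalisation and 68 with probes of a gene averaged. It was 73 with slide row as a block. It was 72 without control 1, without control 2, with the deposited ratios and with scaling by the median of detected probes. Genes past the adjusted p numbered 26, and 11 with quantile normalisation, 77 with no filter on dim probes, 57 with trended and robust variance, 89 with array weights, 16 with slide row as a block, and 0 to 57 when 1 array was left out (0 without control 2 or control 3, 1 without knockout 2 or knockout 3, 57 without knockout 1). Members at an unadjusted p under 0.05 numbered 6 (7.79%, against 12.8% of all genes in either direction). They numbered 2 with normexp and quantile normalisation (2.60%, against 13.2% of all genes) and 3 with no filter (3.90% against 19.9%). With probes of a gene averaged they were 3 (3.90% against 12.5%), and 0 to 8 when 1 array was left out. Without controls 1, 2 and 3 in turn they were 8, 2 and 1 (10.4%, 2.60% and 1.30%), against 14.1%, 9.37% and 10.1% of all genes. Without knockouts 1, 2 and 3 in turn they were 3, 1 and 0 (3.90%, 1.30% and 0%), against 13.0%, 9.35% and 8.99% of all genes. Fewer arrays leave fewer degrees of freedom; the causes were otherwise not tested.

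Replicate numbers were not shown to pair animals: deviations of same-numbered animals correlated at 0.105, -0.096 and -0.025 across genes. With the replicate block, 0 genes passed the adjusted p by limma (1635 at an unadjusted p under 0.05) and 2 members were at an unadjusted p under 0.05.

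Some differences near 0 changed sign. Mrpl9 was at -0.0031 with scaling by the median of detected probes, -0.018 with normexp and quantile normalisation, -0.00083 with the deposited ratios and -0.047 with slide row as a block. That block also gave Mrpl16 -0.10, Mrpl22 -0.037, Mrpl44 -0.038 and Nrf1 0.039. Mrpl32 was at 0.011 with normexp and quantile normalisation, Mrps25 at 0.10 and Gabpa at -0.040 with probes of a gene averaged, Mrps5 at 0.021 and Yy1 at 0.031 with array weights, and Yy1 at 0.0027 with quantile normalisation. Leaving out 1 array gave Mrpl9 from -0.020 to 0.028, Mrpl20 from -0.012 to 0.066, Mrpl12 from -0.11 to 0.027, Mrps36 from -0.10 to 0.016, Mrps5 from -0.028 to 0.023, Mrpl32 from -0.052 to 0.00096, Yy1 from -0.029 to 0.030, Nrf1 from -0.051 to 0.0067 and Mrpl44 from -0.0032 to 0.063.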
